A study of Mus musculus with 4 samples.

Results

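Heat shock proteins and their partner chaperones were followed as 36 genes, out of 31053 genes in the count matrices, in the CD4 T cells that mice with graft-versus-host disease carried in lymphoid and barrier tissues. The genes were taken from a fixed list, and every one of the 36 was present in the matrices of both expression libraries. They fall into 10 stress-inducible genes, 12 cytosolic chaperones and cochaperones, 1 regulator (Hsf1), 10 genes of the endoplasmic reticulum (ER) and 3 mitochondrial genes. The cells were TS1 Tg, meaning that they carried a T cell receptor transgene, on a BALB/c RAG2-/- background, in which receptor genes are not rearranged, and were sorted 4 weeks after transplantation. By the labels, all cells compared share the transgene, the RAG2 deletion, the disease and this time, and no untreated group was analysed here. Whether each cell carried the transgene and the deletion was not tested. In each of 2 replicates, sorted cells of 5 preparations (spleen, colon, skin, and the epithelium and lamina propria of the small intestine) were pooled into 1 droplet library with the 10x Genomics 3′ chemistry. The intestinal epithelium was washed at 37 °C for 20 minutes, lamina propria and colon were digested at 37 °C for 30 minutes and skin at 37 °C for 2 hours, whereas the protocol gives no warm incubation for the spleen, which was flushed, strained and freed of red cells. The tissue of each cell was not analysed here, because the feature lists of the matrices held 0 hashtag features. Tissue of origin, digestion and the cell classes below therefore cannot be told apart. The labels do not tie a replicate to one or more animals. All p-values therefore rest on 2 libraries only, whose spread may be technical. With 1 residual degree of freedom per main fit, the tests pool the spread over genes. The p-value or standard error (SE) of a gene therefore does not measure that gene's own spread between the libraries.

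Chaperones bind unfolded or newly made proteins and help them to fold, to assemble or to be degraded. Under heat and other proteotoxic stress, the transcription factor HSF1 is freed from chaperones, binds heat shock elements in promoters and induces genes such as Hspa1a, Hspa1b, Dnajb1 and Hsph1, while relatives such as Hspa8 and Hsp90ab1 are made at high levels without stress. The ER has its own set, led by the HSP70 relative Hspa5 (BiP) and the HSP90 relative Hsp90b1, which the unfolded protein response induces through ER stress elements, and mitochondria import Hspa9, Hspd1 and Hspe1. Activated T cells raise protein synthesis and depend on these systems.

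The promoters of Hspa1a and Hspa1b are shown because the results turn on this pair of near-identical copies. Both lie on chromosome 17 on the minus strand, Hspa1a at 34969190 to 34972156 and Hspa1b at 34956436 to 34959238 (mm10). The 250 bases before each start (RefSeq, GRCm38.p6, minus strand) run over chr17:34972157-34972406 for Hspa1a and chr17:34959239-34959488 for Hspa1b, and 247 of the 250 bases are identical. Capitals mark the heat shock pair GAANNTTC, 104 to 97 bases before the start in both.
Hspa1a: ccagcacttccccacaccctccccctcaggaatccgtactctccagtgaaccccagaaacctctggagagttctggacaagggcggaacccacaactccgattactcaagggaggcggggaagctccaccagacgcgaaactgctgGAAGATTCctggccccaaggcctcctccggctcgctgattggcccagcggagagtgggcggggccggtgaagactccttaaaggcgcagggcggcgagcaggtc
Hspa1b: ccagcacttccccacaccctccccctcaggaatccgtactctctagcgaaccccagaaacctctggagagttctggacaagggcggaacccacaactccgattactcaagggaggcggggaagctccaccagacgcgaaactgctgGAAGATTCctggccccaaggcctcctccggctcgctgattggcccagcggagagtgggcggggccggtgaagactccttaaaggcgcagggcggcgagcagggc
The copies are 99.6% identical over the coding sequence, with an identical run of up to 638 bases, and 76.2% identical over the aligned bases after it, where the longest identical run is 24 bases. How reads shared by both copies were counted is not given in the sources used here, so the division of UMIs between Hspa1a and Hspa1b is uncertain, and both were also counted together.

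Motifs were searched on both strands in windows from 250 bases before to 50 bases after gene starts (RefSeq, GRCm38.p6), which matched 30 of the 36 members. The heat shock element of 3 alternating parts, GAA, TTC and GAA with 2 free bases between neighbours, was found in 5 of the 30 members (Chordc1, Hsph1, Dnajb6, Hspd1 and Hspe1), against 0.662% of all 27025 genes with a window. The pair GAANNTTC, which the longer element contains, was in 12 of 30 members against 9.04% of all genes, and the pair TTCNNGAA, also contained in it, was in 7 of 30 against 9.60%. The ER stress element, CCAAT and CCACG with 9 free bases between them, was in 6 of the 10 ER members, in 0 of the other 20 matched members, and in 0.137% of all genes. The heat shock motifs were in 0 of the 10 ER windows. One match of the longest heat shock element for 3 members, and the match of each ER member nearest to its start, are printed with the specified bases in capitals, read in the direction of the motif.
Dnajb6: GAAtcTTCcgGAA
Chordc1: GAAcgTTCggGAA
Hsph1: GAActTTCcaGAA
Hspa5: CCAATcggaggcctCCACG
Hsp90b1: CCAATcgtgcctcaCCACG
Calr: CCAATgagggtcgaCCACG
Canx: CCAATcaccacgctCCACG
Dnajc3: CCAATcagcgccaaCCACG
Pdia6: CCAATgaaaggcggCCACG
Hspd1 and Hspe1 are divergent neighbours that share a single 18-base run of 4 parts at chr1:55088059-55088076, 144 to 127 bases before the start of Hspd1 (minus strand) and 89 to 72 bases before that of Hspe1 (plus strand), with the parts again in capitals.
Hspd1: TTCcgGAAggTTCtaGAA
Hspe1: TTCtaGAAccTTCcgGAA
A match describes letters in these windows, not a bound site. Only exact matches were counted, so elements with a changed base, also before Hspa1a and Hspa1b, would be missed. The match of Dnajb6 is 1 site, 46 to 34 bases before one annotated start and 127 to 115 bases before another.

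**Figure D1:**
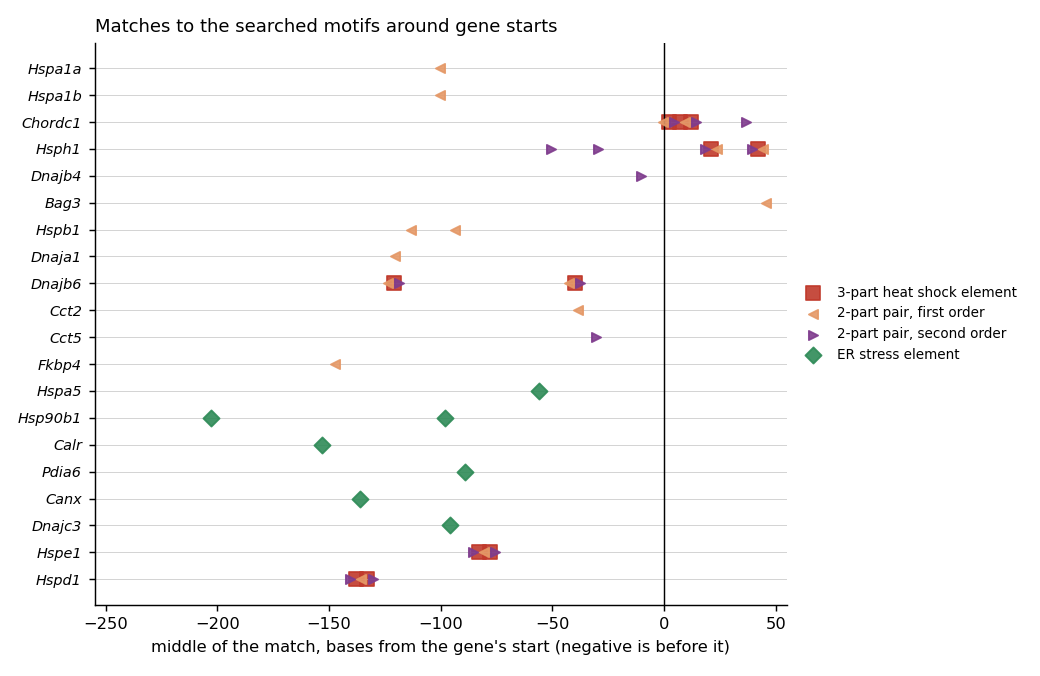
Matches to the 3-part heat shock element (red squares), its 2-part pairs (triangles) and the ER stress element (green diamonds) by member (rows) and by distance in bases from an annotated start (horizontal axis, negative before the start), so that 1 site of a gene with several starts can appear more than once. The green matches lie in 6 ER genes and the red ones in 5 genes of the other classes.

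The libraries held 89427990 and 108082997 UMIs. The filters were at least 1000 UMIs and 500 genes, at most 10% mitochondrial UMIs, and a UMI of Cd3e, Cd3d or Cd3g. They left 18972 and 15857 cells, called T cells here, with medians of 2689 and 3702 UMIs. The CD3 step removed only 48 of 19020 and 41 of 15898 cells. Cd3g was at 2199 and 2252 CPM (UMIs of a gene per 1000000 UMIs) in barcodes under 100 UMIs, which sample free RNA. The step could therefore keep cells of other types. For all comparisons between cells each cell was thinned at random to 1500 UMIs, which kept 15260 and 14839 cells. Against the label CD4 T cells, Cd4 was at 182 and 194 CPM (UMIs of a gene per 1000000 UMIs), below Cd8a at 536 and 487 CPM, and after thinning 24.7% and 25.95% of cells had a Cd4 UMI, 32.5% and 29.4% a Cd8a UMI and 6.70% and 6.17% a Cd8b1 UMI. Trdc, of the gamma delta receptor, was at 227 and 246 CPM. The libraries shared 578 cell barcodes where about 44.3 are expected from the library sizes. In 497 of these pairs the deeper copy had over 5 times the UMIs of the shallower one, and each count of members below is also given without the shared barcodes.

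The constitutive cytosolic chaperones Hspa8 and Hsp90ab1 had the highest levels of the 36 members. One UMI stands for 1 transcript end, so these levels need no correction for length. Hspa8, the constitutive HSP70 of the cytosol, was at 1621 CPM in library 1 and 1938 CPM in library 2, and Hsp90ab1, the constitutive HSP90, at 1593 and 1697 CPM. The 12 cytosolic members together held 4866 and 5356 CPM, the 10 ER members 3019 and 2977 CPM, the 10 inducible members 885 and 866 CPM, and the 3 mitochondrial members 579 and 606 CPM. Among ER genes Hspa5 was at 672 and 732 CPM, followed by the disulfide isomerase Pdia3 at 561 and 496 CPM and Hsp90b1 at 526 and 499.6 CPM. Pdia3 and Hsp90b1 did not differ beyond the gap between the libraries. Hspe1 and Hspd1, the mitochondrial HSP10 and HSP60, were at 304 and 324 CPM and at 223 and 230 CPM. Hspa9, the mitochondrial HSP70, was at 52.2 and 53.0 CPM.

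Within the inducible class Hsp90aa1, the inducible HSP90, was highest at 337 and 361 CPM. Hspa1a was at 180 and 144 CPM, Hspa1b at 136 and 105 CPM, and Dnajb1, the HSP40 that works with HSP70, at 97.2 and 99.8 CPM. The small heat shock protein genes Hspb1 (1.01 and 1.06 CPM) and Cryab (0.897 and 1.29 CPM) and the HSP70 cochaperone gene Bag3 (2.93 and 4.20 CPM) were near the floor of detection. Hsf1 was at 31.5 and 34.4 CPM. None of the 36 members differed by more than 1.5-fold between the libraries, as did 0.919% of the 7287 genes at 10 CPM or more in either library. In barcodes under 100 UMIs, which sample free RNA, Hspa1a was at 269 and 214 CPM, above its level in cells in both libraries, whereas Hspa8 was at 1582 and 1639 CPM and Hspa5 at 617 and 665 CPM. Dnajb1 (120 and 135 CPM) and Ifitm1, which defines a split below, were also higher there than in cells, Ifitm1 at 495 and 363 CPM against 373 and 249 CPM. The part of free RNA in the UMIs of these genes in cells, and so in the classes drawn on them, was not tested.

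**Figure D2:**
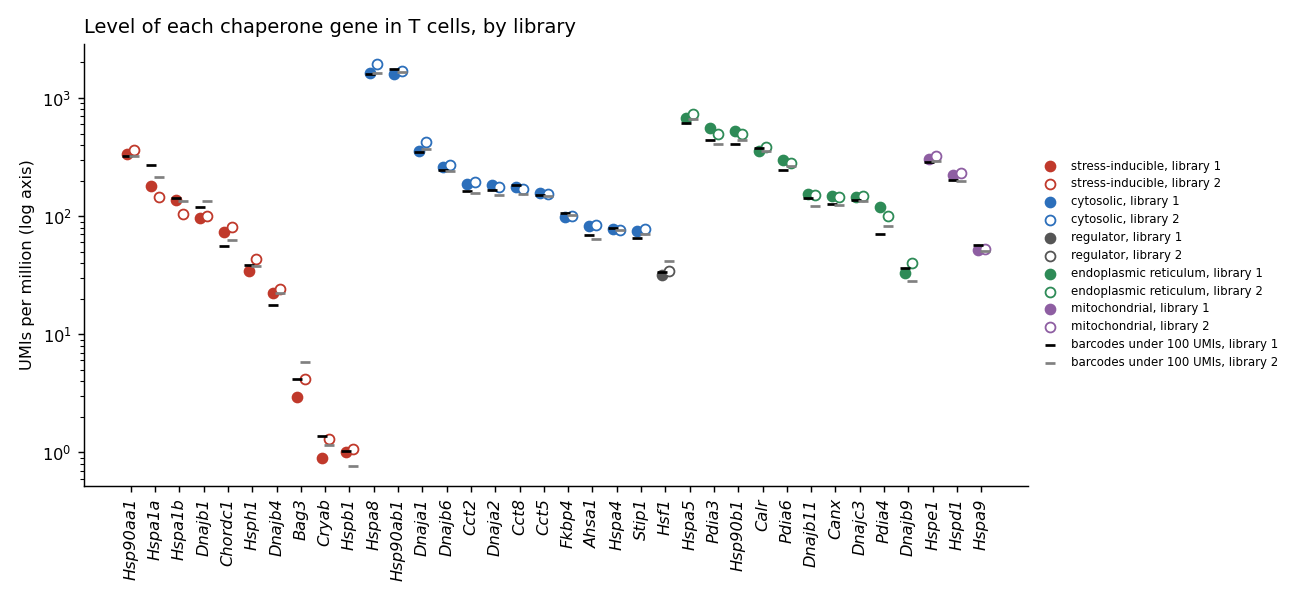
Level of each of the 36 members in T cells (CPM, log axis) in library 1 (filled) and library 2 (open), with dashes for barcodes under 100 UMIs. Hspa8 and Hsp90ab1 stand highest, and Hspb1, Cryab and Bag3 lie under 5 CPM.

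Hspa1a and Hspa1b transcripts were concentrated in few cells. At 1500 UMIs a cell, 12.7% of cells in library 1 (1942 of 15260; exact 95% interval 12.2 to 13.3%) and 11.3% in library 2 (1684 of 14839; 10.8 to 11.9%) had a UMI of either gene. Cells with 5 or more such UMIs were 3.13% and 2.35% of all cells and held 73.4% and 72.1% of the Hspa1a and Hspa1b UMIs, with up to 57 and 91 UMIs in a single cell. Hspa1b was found in 49.8% and 40.4% of cells with Hspa1a and in 3.94% and 3.65% of cells without it. By comparison, Hspa8, at a much higher level, was found in 84.9% and 88.9% of cells. Of members nearer in level, Hsp90aa1 (337 and 361 CPM) was found in 32.5% and 34.8% of cells. Hspe1 (304 and 324 CPM) was found in 30.3% and 31.6%. The intervals cover counting error only.

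Cells with Hspa1a or Hspa1b UMIs also had more of other inducible chaperones. They had less of several ER and cytosolic ones, but these falls depended on the setting. This split was drawn on 2 of the 36 members, so it describes how the other 34 vary with them. With edgeR's quasi-likelihood test and a Benjamini-Hochberg adjusted p under 0.05, 9 of the 34 rose and 7 fell (15 called without the shared barcodes), where 7.81% of the 11414 genes tested rose and 6.54% fell (14.4% in either direction). All 34 passed the filter on low counts. Of the 8 inducible members tested 6 rose and 1 fell, with a median log2 fold change of 0.73 against 0.00 for all genes. Of the 34, 8 rose and 0 fell without thinning, 4 and 0 with no replicate block, and 4 and 1 with DESeq2. Over all genes, 1876 of 13558, 277 of 11414 and 321 of 6474 were called in these settings. Among cells with no Ifitm1 UMI 5 rose and 0 fell, where 306 of 11221 genes were called. No fall held under every alternative setting.

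Dnajb1 was at 298 CPM with and 80.5 CPM without Hspa1a or Hspa1b UMIs in library 1, and at 261 and 89.3 CPM in library 2. Its log2 fold change was 1.70 (SE 0.06, adjusted p = 9.96e-145). Hsph1, the HSP110 that exchanges the nucleotide of HSP70, was at 53.2 against 29.1 CPM and at 74.4 against 41.0 CPM (log2 fold change 0.84, SE 0.10). Both genes were higher with than without in each library and the classes did not overlap. Hsp90aa1 stood at 431 against 273 CPM and at 442 against 299 CPM (0.59, SE 0.05). Bag3 had a log2 fold change of 1.02 (SE 0.33, adjusted p = 0.0188) on 37 against 132 UMIs. Most Hspb1 UMIs lay in these cells, 48 of 54, a level 58.4 times that of the other cells (exact 95% interval 24.96 to 167). Hspb1 was found in only 10 cells of each library. The interval takes each UMI as independent and is therefore too narrow, as are those of Hspb1 in the splits below. Chordc1, a cochaperone of HSP90, moved the other way, at 55.6 against 72.9 CPM and 70.1 against 84.2 CPM (-0.35, SE 0.09).

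Among cytosolic members Dnaja1, an HSP40 of the constitutive set, was at 522 against 342 CPM and at 571 against 418 CPM (0.51, SE 0.05, adjusted p = 3.93e-20). Hspa8 (0.17, SE 0.04) and Hsp90ab1 (0.15, SE 0.04) rose less, while Cct5, a subunit of the ring-shaped chaperonin for actin and tubulin, and Fkbp4, a cochaperone of steroid receptors, fell (-0.30, SE 0.07, and -0.23, SE 0.08). Without thinning the value of Fkbp4 was 0.058. Hsf1 itself was at 32.6 against 34.2 CPM and 36.03 against 37.1 CPM (-0.08, SE 0.12, adjusted p = 0.761). Of the 10 ER members 0 rose and 4 fell, by 0.16 to 0.26 on the log2 scale: Dnajb11 (-0.26), Hsp90b1 (-0.23), Pdia6 (-0.17) and Pdia3 (-0.16). Hspa5 was at 681 against 675 CPM and 789 against 726 CPM (0.05, SE 0.05). Of the 3 mitochondrial members 0 were called, and Hspd1 was at 190 against 182 and 177 against 189 CPM.

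Among cells grouped by their number of Hspa1a and Hspa1b UMIs, Dnajb1, Hsph1, Hsp90aa1 and Bag3 were highest in the top step, while Chordc1 and Cryab were not. Dnajb1 was at 80.5 and 89.3 CPM in cells with none, 118 and 92.8 CPM with 1, 184 and 188 CPM with 2 to 4, and 778 and 820 CPM with 5 or more, over 13318, 948, 517 and 477 cells of library 1 and 13155, 1020, 316 and 348 cells of library 2. Hsph1 went from 29.1 and 41.0 CPM in cells with none to 112 and 151 CPM in those with 5 or more, and Hspa8 from 1471 and 1779 CPM to 2361 and 2552 CPM. Dnaja1 reached 801 and 1019 CPM and Hsp90aa1 692 and 856 CPM in the highest step. In the same cells Hsp90b1 was at 340 and 351 CPM, against 497 and 469.6 CPM in cells with none. Chordc1 was at 37.7 and 49.8 CPM against 72.9 and 84.2 CPM. Not every ER member was lower there, as Hspa5 was at 765 and 897 CPM against 675 and 726 CPM. The mitochondrial Hspe1 was at 320 and 349 CPM against 260 and 278 CPM, and Hspd1 at 166 and 215 CPM against 182 and 189 CPM. These steps are given as a description, with no test.

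**Figure D3:**
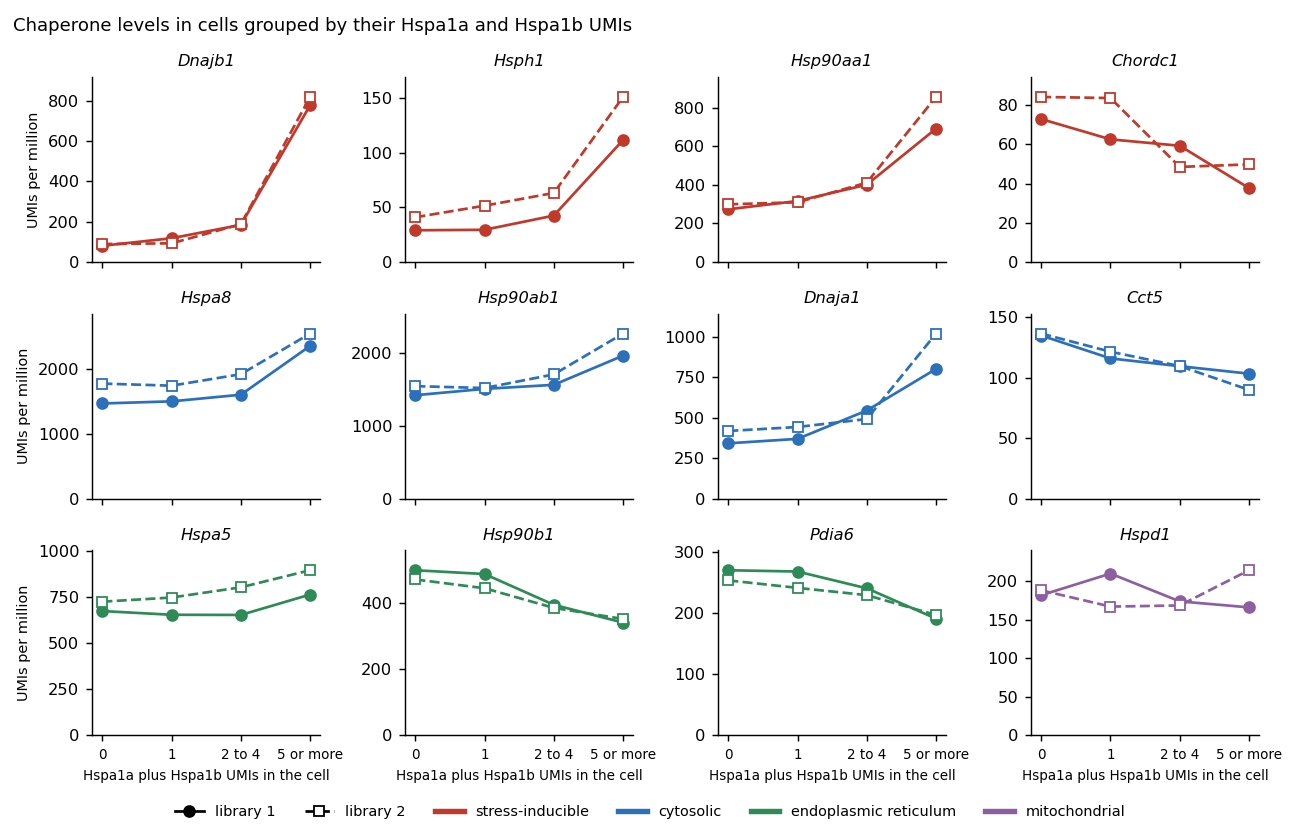
Level (CPM, axes from 0) of 12 members in cells with 0, 1, 2 to 4, and 5 or more Hspa1a plus Hspa1b UMIs, in library 1 (filled, solid) and library 2 (open, dashed). Dnajb1, Hsph1, Hsp90aa1 and Dnaja1 are highest in the last step, where Hsp90b1, Pdia6 and Chordc1 are lowest or close to it.

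Cells with an Ifitm1 UMI, a gene of an interferon-induced membrane protein family, had more Hspa1a, Hspa1b and Dnajb1. They were 3149 of 15260 and 2361 of 14839 cells. Of the 36 members 6 rose and 5 fell (9 called without the shared barcodes), against 10.8% and 8.65% of the 11344 genes tested (19.4% in either direction). The falls depended on the setting: 6 rose and 1 fell without thinning, and 4 rose and 0 fell with no replicate block. With DESeq2 3 rose and 0 fell. These settings called 2387 of 13490, 824 of 11344 and 580 of 10307 genes. The inducible class held 1421 CPM in Ifitm1 cells against 786 CPM in the others in library 1, and 1366 against 796 CPM in library 2, and 4 of its 10 members rose and 1 fell.

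Hspa1a was at 480 CPM with and 148 CPM without Ifitm1 in library 1, and at 437 and 126 CPM in library 2. That is 3.37-fold, a log2 fold change of 1.75 (SE 0.05, adjusted p = 1.01e-16). Hspa1b was at 364 against 113 and 307 against 93.8 CPM (log2 fold change 1.71, SE 0.05). Dnajb1 was at 149 against 97.7 and 154 against 100.1 CPM (0.62, SE 0.06, adjusted p = 3.45e-08). For these 3 genes the classes did not overlap. Hspb1 rose on 25 against 29 UMIs, 3.85 times the level of the other cells (exact 95% interval 2.16 to 6.80, too narrow as above). Its log2 fold change was 2.52 in library 1 and 1.18 in library 2, and it was not called by DESeq2 (adjusted p = 0.396). Chordc1 fell, from 75.1 to 54.0 CPM and from 84.3 to 73.7 CPM (-0.33, SE 0.08). Hsp90aa1 stood at 303 against 291 and 307 against 317 CPM, which overlap.

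Outside the inducible class the differences by Ifitm1 were small. Hspa8 was at 1517 against 1503 CPM and 1738 against 1809 CPM (-0.01, SE 0.04), Hsp90ab1 at 1424 against 1457 and 1495 against 1579 CPM (-0.05, SE 0.04), and Hsf1 at 32.2 against 34.5 and 40.1 against 36.4 CPM (0.03, SE 0.10); none of them was called. Of the 12 cytosolic members Dnaja1 rose (0.15) and Fkbp4 (-0.20) and Cct5 (-0.20) fell. Of the 10 ER members 1 rose, the disulfide isomerase Pdia4 (0.22, SE 0.06), and Hspa5 was at 679 against 675 and 751 against 730 CPM. Hspd1 was at 157 against 190 and 159 against 193 CPM (-0.27, SE 0.05, adjusted p = 0.000629) and Hspe1 at 240 against 268 and 252 against 283 CPM (-0.15, SE 0.05), lower in both libraries without overlap. Without thinning both values had the opposite sign, at 0.083 for Hspd1 and 0.13 for Hspe1 on the log2 scale, and Hspe1 was then called as higher (adjusted p = 0.0438). Among cells with no Hspa1a or Hspa1b UMI the difference of Dnajb1 was 0.12 (SE 0.08, adjusted p = 0.382), while that of Hspd1 was -0.26 (SE 0.07, adjusted p = 0.00084).

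Cells with Il13 or Csf2 UMIs, cytokine genes of type 2 and inflammatory helper cells, were also richer in Hspa1a and Hspa1b. They were 1638 and 1414 cells. Of the 36 members 6 rose and 3 fell (9 called without the shared barcodes, 8 of them the same), against 10.2% and 7.54% of 11365 genes (17.8% in either direction). Hspa1a was at 512 against 181 CPM in library 1 and at 347 against 158 CPM in library 2 (log2 fold change 1.38, SE 0.06, adjusted p = 1.11e-48). Hspa1b was at 352 against 142 and 233 against 116 CPM (1.21, SE 0.06), and Dnajb1 at 156 against 102 and 128 against 107 CPM (0.49, SE 0.07). For these 3 genes the classes did not overlap. Their log2 fold changes were 1.56, 1.36 and 0.66 in library 1 and 1.16, 1.03 and 0.29 in library 2. These gaps between the libraries are wider than the SEs.

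Hspa5 also rose here, at 777 against 664 CPM and 875 against 718 CPM (0.30, SE 0.05, adjusted p = 3.34e-08), and did so without overlap. It was the only ER member called, of 10. Chordc1 (-0.43, SE 0.09), Fkbp4 (-0.28, SE 0.09) and Cct5 (-0.20, SE 0.07) fell. Dnaja1 (0.17, SE 0.05) and Hsp90ab1 (0.11, SE 0.04, adjusted p = 0.0472) rose. Of 12 alternative settings, Chordc1 and Fkbp4 kept the call in 8, Dnaja1 in 5, and Cct5 and Hsp90ab1 in 3. With DESeq2 4 members rose and 0 fell, and with no replicate block 3 and 0. Those settings called 597 of 10307 and 857 of 11365 genes. Hspa8 was at 1578 against 1497 and 1772 against 1801 CPM, and Hspd1 at 185 against 183 and 169 against 189 CPM; neither was called, nor was Hsf1 (0.18, SE 0.12). Among cells with no Ifitm1 UMI the log2 fold changes were 1.42 (SE 0.08) for Hspa1a, 1.18 (SE 0.09) for Hspa1b, 0.28 (SE 0.10, adjusted p = 0.0398) for Dnajb1 and 0.27 (SE 0.05) for Hspa5.

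Cells with UMIs of both Itgae, the integrin chain CD103 of cells that lodge in epithelia, and Cd8a had less of most members that changed. They were 2247 and 2264 cells, and all other cells served as the comparison. Of the 36 members 1 rose and 19 fell, where 16.5% of the 11240 genes tested rose and 18.3% fell (34.9% in either direction). Without the shared barcodes 1 rose and 19 fell as well. Without thinning 7 rose and 18 fell, and 7226 of 13330 genes were called. Members of every class but the regulator were among those that fell, with 6 of 10 inducible, 5 of 12 cytosolic, 5 of 10 ER and 3 of 3 mitochondrial genes, and the median log2 fold change of the 36 was -0.20 against 0.00 for all genes.

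Hspa1a was at 67.7 CPM in these cells and 242 CPM in the others in library 1, and at 45.9 and 199 CPM in library 2 (log2 fold change -1.93, SE 0.07, adjusted p = 1.52e-158). Hspa1b was at 43.6 against 186 and 30.6 against 145 CPM (-2.12, SE 0.08), and Dnajb1 at 60.5 against 116 and 64.5 against 117 CPM (-0.87, SE 0.07). Hspb1 had 1 UMI in these cells against 53 in the others, 0.107 times the level (exact 95% interval 0.00266 to 0.623, also too narrow). Hsp90aa1 was at 231 against 304 and 249 against 327 CPM (-0.36, SE 0.05), and Hsph1 fell by 0.31 on the log2 scale. Thinned to 1000 UMIs, the value of Hsph1 was 0.076 and was not called. Chordc1 rose, at 83.1 against 68.6 and 92.8 against 80.8 CPM (0.27, SE 0.07).

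The abundant constitutive genes were lower too. Hspa8 was at 1246 against 1551 and 1535 against 1845 CPM (-0.26, SE 0.04, adjusted p = 2.86e-10) and Hsp90ab1 at 1162 against 1499.7 and 1209 against 1630.1 CPM (-0.37, SE 0.04), and for both the classes did not overlap. In the ER class Hspa5 was at 566 against 695 and 559 against 764 CPM (-0.34, SE 0.04), Pdia4 fell by 0.33, Dnajb9 by 0.30, and Hsp90b1 and Dnajc3 by 0.20 each, while Calr and Canx, the lectin chaperones of glycoproteins, were not called (-0.05 and -0.11). Hspd1 was at 140 against 191 and 143 against 195 CPM (-0.41, SE 0.06), Hspe1 at 196 against 274 and 224 against 288 CPM (-0.38, SE 0.05) and Hspa9 at 36.8 against 48.3 and 31.2 against 47.7 CPM (-0.46, SE 0.10). Hsf1 was at 31.7 against 34.4 and 28.0 against 38.6 CPM (-0.26, SE 0.11, adjusted p = 0.0642). The chaperonin subunit Cct8 fell (-0.19, but 0.064 without thinning), while Cct2 (-0.04) and Cct5 (0.05) were not called.

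Cells with Tcf7, the transcription factor of progenitor-like T cells, differed little in the inducible class. They were 922 and 906 cells. Of the 36 members 3 rose and 1 fell (3 and 1 also without the shared barcodes), against 3.91% and 4.32% of 11267 genes (8.24% in either direction), and the median was -0.02 against 0.00 for all genes. Dnajb1 was at 137 against 106 and 132 against 107 CPM (0.32, SE 0.08), Dnajc3, an ER cochaperone, at 175 against 143 and 184 against 152 CPM (0.27, SE 0.07), and Dnaja1 at 427 against 361 and 469 against 433 CPM (0.16, SE 0.05). Thinned to 1000 UMIs, the value of Dnajb1 was -0.059. Hsp90b1 fell, from 492 to 423 and from 465 to 432 CPM (-0.18, SE 0.05). Hspa1a was at 199.6 against 217 and 164 against 177 CPM (-0.13, SE 0.07, adjusted p = 0.314) and Hspa1b at 200.3 against 163 and 116 against 128 CPM (0.10, SE 0.08), and the order for Hspa1b was opposite in the libraries. Of the 4 calls 0 held under every alternative setting. DESeq2 called 0 of the 34 members for which it gave an adjusted p (3 at an unadjusted p under 0.05). It called 268 of 10307 genes.

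**Figure D4:**
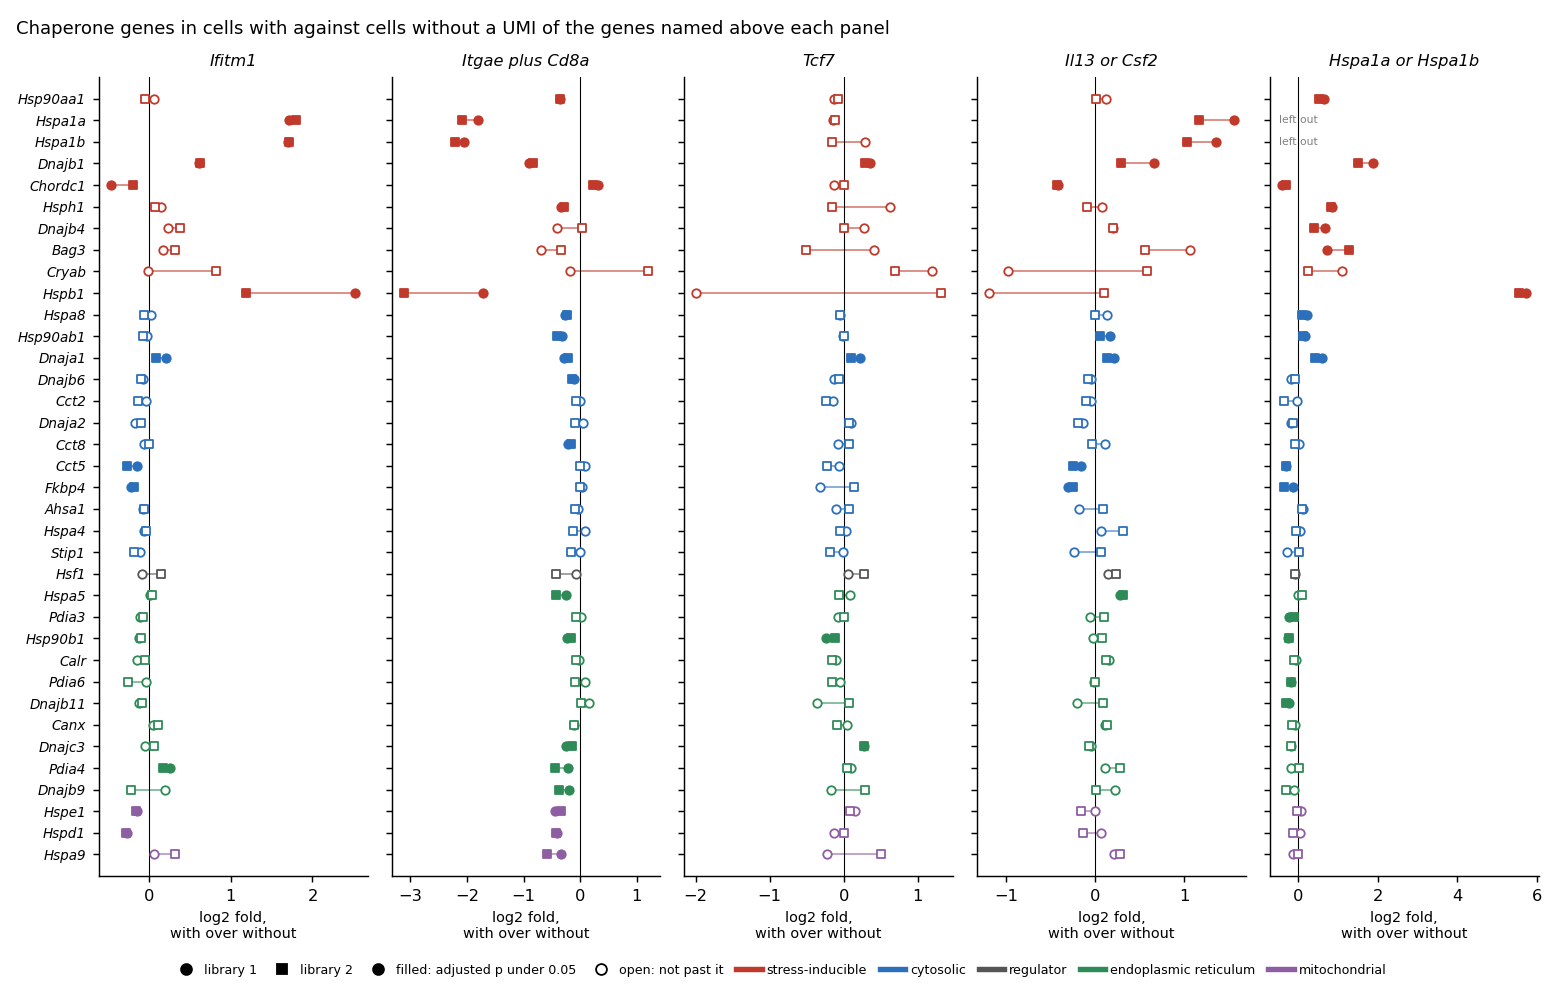
Log2 fold change of each member (rows) in cells with over cells without a UMI of the genes above each panel, for library 1 (circles) and library 2 (squares), filled where the adjusted p was under 0.05. Each panel has its own axis. Hspa1a and Hspa1b lie far right in the Ifitm1 and Il13 or Csf2 panels and far left in the Itgae plus Cd8a panel. Dnajb1 lies on the same sides but closer to 0, and most members of other classes lie within 0.5 of 0.

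The share of cells with any Hspa1a or Hspa1b UMI was 24.0% and 20.1% in Ifitm1 cells against 9.80% and 9.70% in the rest, and 23.3% and 15.3% in Il13 or Csf2 cells against 11.5% and 10.9%. In cells with Itgae and Cd8a it was 7.70% and 5.87% against 13.6% and 12.3%, and in Tcf7 cells 13.1% and 13.7% against 12.7% and 11.2%. Ifitm1 cells overlapped the Il13 or Csf2 cells: 21.5% and 17.2% of Ifitm1 cells had Il13 or Csf2, against 7.93% and 8.07% of the rest. With neither, 8.96% and 9.49% of cells had Hspa1a or Hspa1b. With Ifitm1 alone the share was 22.7% and 19.4%, with Il13 or Csf2 alone 19.6% and 12.02%, and with both 28.5% and 23.3%. Cells with Itgae and Cd8a but no Ifitm1 were lowest, at 5.95% and 5.64%, and those that also had Ifitm1 stood at 20.1% (56 of 279) and 8.38% (16 of 191), with exact 95% intervals of 15.5 to 25.3% and 4.86 to 13.2%. These shares are descriptive, and whether the differences seen with each set of genes add was not tested.

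**Figure D5:**
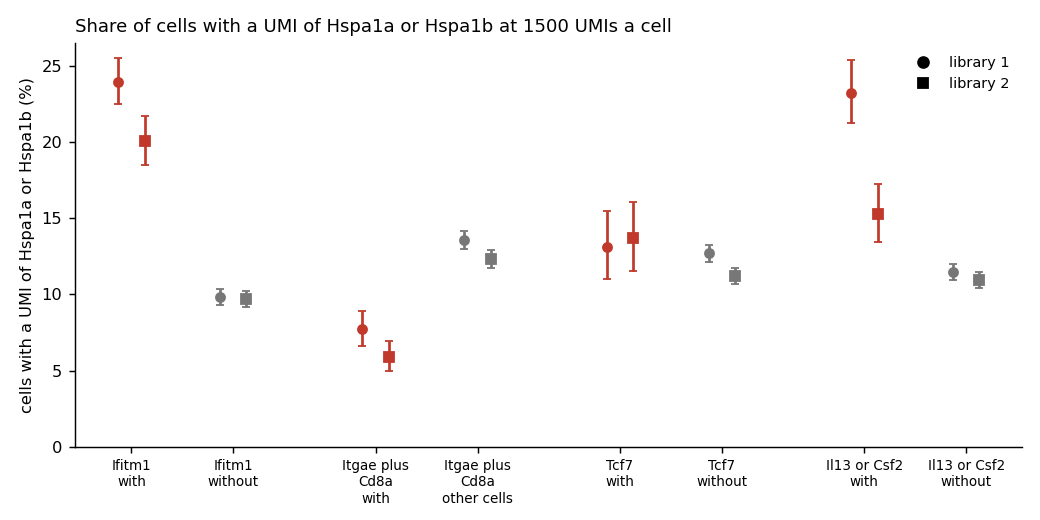
Share of cells (%) with a UMI of Hspa1a or Hspa1b, after thinning to 1500 UMIs, in cells with (red) and without (grey) the named genes, for library 1 (circles) and library 2 (squares), with exact 95% intervals. Cells with Ifitm1 and with Il13 or Csf2 lie above their counterparts, cells with Itgae plus Cd8a below them, and Tcf7 cells close to them.

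Further genes of the same pathways were taken from lists that share no gene with the 36. Their counts stand beside shares over all genes tested of 10.8% rising and 8.65% falling with Ifitm1, 10.2% and 7.54% with Il13 or Csf2, 16.5% and 18.3% with Itgae plus Cd8a, 3.91% and 4.32% with Tcf7, and 7.81% and 6.54% with Hspa1a or Hspa1b. Of 15 other heat shock response genes tested (18 listed), 4 rose and 1 fell with Ifitm1, 5 rose with Il13 or Csf2, 4 fell with Itgae plus Cd8a, 1 rose with Tcf7, and 4 rose and 1 fell with Hspa1a or Hspa1b. The autophagy receptor Sqstm1 was at 135 against 82.7 and 132 against 88.5 CPM in the Ifitm1 split (0.66, SE 0.06), rose by 0.82 with Il13 or Csf2 and fell by 0.41 with Itgae plus Cd8a. Ier5, which cooperates with HSF1, was at 160 against 347 and 172 against 368 CPM in cells with Itgae plus Cd8a (-1.07, SE 0.06). Of 18 other genes of the ER and its stress response, 4 rose with Ifitm1 (Ern1 by 0.65, Atf6 by 0.34), 7 rose with Il13 or Csf2 (Ern1 by 0.76, Herpud1 by 0.53, Xbp1 by 0.37), 1 rose and 6 fell with Itgae plus Cd8a (Atf6 by 0.53, Ddit3 by 0.43), 2 fell with Tcf7 (Sdf2l1 by 0.39) and 2 rose with Hspa1a or Hspa1b (Herpud1 by 0.33). Of 13 other cytosolic chaperones tested, 0 were called with Ifitm1, Tcf7 or Hspa1a or Hspa1b, 1 rose and 1 fell with Il13 or Csf2, and 2 rose and 2 fell with Itgae plus Cd8a. Of 8 other mitochondrial chaperones and cofactors, Hscb and Grpel1 fell with Ifitm1 (-0.40 and -0.29) and with Il13 or Csf2 (-0.33 and -0.40), Hscb rose with Itgae plus Cd8a (0.57), and 0 were called in the other splits.

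Several other measures moved with the classes, and their part in the results was not tested. Of 18 immediate-early genes, which respond within minutes to stimulation and stress, 15 rose with Ifitm1, 17 with Il13 or Csf2, 14 with Hspa1a or Hspa1b and 9 with Tcf7, and 18 fell with Itgae plus Cd8a. Atf3 was at 252 against 81.5 and 246 against 73.5 CPM with Ifitm1 (1.69, SE 0.05), and at 33.2 against 131 and 28.6 against 114 CPM with Itgae plus Cd8a (-1.95, SE 0.09). The median mitochondrial share of UMIs was 3.40% and 3.18% in Ifitm1 cells against 2.56% and 2.40%, 3.38% and 3.099% with Il13 or Csf2 against 2.62% and 2.43%, and 3.39% and 3.02% with Hspa1a or Hspa1b against 2.61% and 2.43%. It was 2.11% and 2.06% with Itgae plus Cd8a against 2.80% and 2.57%. Before thinning, median UMIs were 2734 and 3542 in Ifitm1 cells against 3239 and 3920, and 3645 and 4335.5 with Itgae plus Cd8a against 3052 and 3750.

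Markers of other cell types were present in the sums. The 6 neutrophil markers, which include S100a8 and S100a9, summed to 1114 and 2543 CPM in Ifitm1 cells against 1721 and 2615 CPM, to 127 and 450.3 CPM with Tcf7 against 1690.3 and 2744 CPM, to 797 and 588 CPM with Il13 or Csf2 against 1692 and 2816 CPM, to 627 and 400.2 CPM with Itgae plus Cd8a against 1763 and 3000.3 CPM, and to 1733 and 1543 CPM with Hspa1a or Hspa1b against 1576 and 2739 CPM. The 6 myeloid markers summed to between 208 and 420 CPM in every class of the 5 splits. The 5 stromal markers were higher with Hspa1a or Hspa1b, at 53.6 against 16.9 and 28.9 against 8.77 CPM, and lay between 3.83 and 24.6 CPM in the classes of the other splits. The 5 basophil and mast cell markers were at 99.1 against 36.4 and 91.8 against 76.2 CPM with Ifitm1, at 4.07 against 54.8 and 7.54 against 86.2 CPM with Il13 or Csf2, and at 5.84 against 55.7 and 11.9 against 87.2 CPM with Hspa1a or Hspa1b. The part of these cells in the results was not tested. Leaving out cells with 3 or more UMIs of other cell types gave 7 members called with Ifitm1, 14 with Itgae plus Cd8a and 2 with Tcf7. It gave 6 with Il13 or Csf2 and 6 with Hspa1a or Hspa1b. In the same order, 1662 of 10020, 2228 of 9802, 416 of 9625, 969 of 9830 and 823 of 9826 genes were called. In library 2 this kept 767 of 2361 Ifitm1 cells and 3462 of the 12478 others. A filter at 5 or more UMIs was chosen after seeing the data and leaves Cst3, Trdc and Pecam1 out of the markers. With it 12 members were called with Ifitm1, 20 with Itgae plus Cd8a, 3 with Tcf7, 8 with Il13 or Csf2 and 15 with Hspa1a or Hspa1b. Genes called were, in that order, 2591 of 11184, 3655 of 10990, 932 of 10993, 1893 of 11129 and 1432 of 11113.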

How the data were processed

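The authors deposited unfiltered UMI counts per gene and barcode for 2 expression libraries, made with Cell Ranger 3.1.0 and mm10 per the submitters' processing notes. Cells with at least 1000 UMIs, 500 genes, at most 10% mitochondrial UMIs and a UMI of any of the 3 CD3 genes were kept, and no doublets were called. Each cell was thinned at random to 1500 UMIs, leaving out shallower cells. Counts were summed per library and class (4 sums per split, 5 splits) and tested with edgeR 4.0.16 (quasi-likelihood, TMM, filterByExpr, R 4.3.3), Benjamini-Hochberg adjusted over all genes tested. The library was a block because both classes came from the same library, which left 1 residual degree of freedom per fit. DESeq2 1.42.0 was an alternative. The edgeR step was also run on counts simulated for the Ifitm1 split only, with the same dispersion for every gene. Its outcome is not given here and supports no result above. Gene positions are from GENCODE (mm10) and promoter windows from RefSeq (GRCm38.p6). Values were given for Hspa1a, Hspa1b, Hspa8, Hsp90ab1, Hspa5, Hspd1 and Hsf1, and in each split for up to 4 called members per class by size of change and up to 3 called genes per pathway list. Members named outside that rule were picked with their values in view. The members and lists were chosen with earlier results of these data known.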

Additional observations from a re-analysis of the deposited data

How the results depend on the processing

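Of the 60 called values of members, 51 belong to genes taken by the naming rule, and these had 618 values under alternative settings. Of these 453 kept direction and call, 160 kept the direction and lost the call, and 5 had the opposite sign. Without thinning the log2 fold changes of Hspd1 and Hspe1 with Ifitm1 were 0.083 and 0.13, that of Cct8 with Itgae plus Cd8a was 0.064 and that of Fkbp4 with Hspa1a or Hspa1b was 0.058. Thinned to 1000 UMIs, that of Dnajb1 with Tcf7 was -0.059. Among the other called members, Hsph1 and Dnajb6 with Itgae plus Cd8a were at 0.076 and 0.0053 in that setting. The causes were not tested.

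The splits by Ifitm1, Itgae plus Cd8a, Tcf7, Il13 or Csf2, and Hspa1a or Hspa1b had 11, 20, 4, 9 and 16 members called. With no replicate block, which drops the pairing of both classes within a library, the counts were 4, 10, 0, 3 and 4. This setting called 824, 2301, 207, 857 and 277 genes, against 2206, 3918, 928, 2019 and 1638 in the main fits. DESeq2 gave 3, 11, 0, 4 and 5 members, and 580, 1213, 268, 597 and 321 genes. For Tcf7, 3 members had an unadjusted p under 0.05 in each of these settings. The counts that follow have the genes called of all tested in brackets. Without thinning they were 7 with Ifitm1 (2387 of 13490), 13 with Tcf7 (3177 of 13282) and 8 with Hspa1a or Hspa1b (1876 of 13558). With Itgae plus Cd8a 7 rose and 18 fell, 25 in all (7226 of 13330). Thinned to 1000 UMIs the counts were 13 with Itgae plus Cd8a (2279 of 10899) and 1 with Tcf7 (540 of 11111). They were 5 with Il13 or Csf2 (1219 of 10941) and 10 with Hspa1a or Hspa1b (1148 of 11096). A second random thinning gave 2 with Tcf7 (1100 of 11251). With at most 5% mitochondrial UMIs the count with Ifitm1 was 7 (1796 of 11175). Without cells with 3 or more UMIs of other cell types the counts were 7 with Ifitm1 (1662 of 10020) and 2 with Tcf7 (416 of 9625). Hspa1a or Hspa1b then gave 6 (823 of 9826). Among cells with no Hspa1a or Hspa1b UMI, Ifitm1 gave 6 (1918 of 11237). Cells with no Ifitm1 UMI were an alternative chosen after seeing the data. Among them Il13 or Csf2 gave 5 (1247 of 11062) and Hspa1a or Hspa1b gave 5 (306 of 11221). The settings without shared barcodes or without cells with 5 or more UMIs of other cell types were also chosen after seeing the data. Without shared barcodes 2198, 3606, 978, 1990 and 1497 genes were called in the 5 splits, in the order above.

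Calls held under every alternative that tested the gene for 2 of 11 members with Ifitm1 (Hspa1a and Hspa1b). With Itgae plus Cd8a 9 of 20 held and with Tcf7 0 of 4. With Il13 or Csf2 3 of 9 held (Hspa1a, Hspa1b and Dnajb1). With Hspa1a or Hspa1b 4 of 16 held (Dnajb1, Dnaja1, Hsp90aa1 and Hspb1). Hspb1, counted as held also with Itgae plus Cd8a, was tested in fewer settings. These were 10 of 12 with Hspa1a or Hspa1b and 7 of 13 with Itgae plus Cd8a. Leaving out a library leaves no residual degree of freedom, so the other library's log2 fold change is a value with no test and no count of calls. The depth limits Hspb1, Cryab and Bag3 most, with 54, 51 and 169 UMIs after thinning.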
